A study of Mus musculus with 4 samples.

Results

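Wnt target genes and TCF/LEF factors were followed in mouse embryonic stem cells after 1 h of bone morphogenetic protein 2 (BMP-2). The set comprised 10 genes chosen by name: Axin2, Notum, Nkd1, Sp5, Ccnd1, Lef1, Tcf7, Tcf7l1, Tcf7l2 and Ctnnb1. All probe sets whose only gene symbol in the platform annotation was one of these names were taken, which gave 22 of the 45037 probe sets other than controls. They named 9 of the 10 genes. No probe set carried the symbol Tcf7 alone, so Tcf7 was not analysed here. Of the 22 probe sets, 16 were bright enough to be tested, with at least 1 for each of the 9 genes.

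RNA came from cells of E14Tg2A.4, a subline derived from the mouse line E14Tg2a, which lacks Hprt, and each of 4 samples was hybridised to an Affymetrix array of its own. In 2 samples the cells had received 25 ng/ml of BMP-2 over 1 h, and the other 2 were untreated controls. The titles of the controls give no time. Both groups were thus the same cell line with no genetic change between them, and the labels name no other agent. Whether replicates were separate cultures is not stated in the labels, so the p-values rest on a spread that may be technical.

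Wnt ligands that bind Frizzled receptors and LRP co-receptors stop the destruction complex, built on Axin, from marking beta-catenin for degradation. Beta-catenin, encoded by Ctnnb1, then enters the nucleus and binds TCF/LEF factors on DNA, which switches their target genes on. Among the targets, Axin2, Notum and Nkd1 encode feedback inhibitors of the pathway itself. In mouse embryonic stem cells the pathway favours self-renewal, in large part by lifting the repression that Tcf7l1 exerts on pluripotency genes.

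The stretch just upstream of a target gene is where TCF/LEF sites are often sought, and 3 such stretches are shown for the genes that the results below turn on: Sp5 and Axin2, which lay on opposite sides of 0, and Lef1, which had the smallest p among the members. Each line gives the 250 bases before a RefSeq transcript start in build GRCm38.p6, 5′ to 3′ on the gene's strand. Capitals mark the TCF/LEF core CTTTG on either strand (CAAAG on the other), extended to the full motif CTTTGAA or CTTTGAT where those letters follow, and GGCGCC, a motif bound by SMAD1 and SMAD5.
Sp5, chr2:70474673-70474922, plus strand: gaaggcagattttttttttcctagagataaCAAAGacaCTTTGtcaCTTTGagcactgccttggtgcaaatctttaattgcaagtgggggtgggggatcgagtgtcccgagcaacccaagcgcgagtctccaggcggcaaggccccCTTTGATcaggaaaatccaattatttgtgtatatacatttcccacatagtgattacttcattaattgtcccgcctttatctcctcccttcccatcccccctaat
Axin2, chr11:108920099-108920348, plus strand: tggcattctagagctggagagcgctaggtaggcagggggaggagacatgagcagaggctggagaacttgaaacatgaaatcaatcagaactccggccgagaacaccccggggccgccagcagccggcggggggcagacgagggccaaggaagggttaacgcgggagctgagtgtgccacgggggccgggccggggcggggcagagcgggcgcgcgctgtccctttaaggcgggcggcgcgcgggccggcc
Lef1, chr3:131110047-131110296, plus strand: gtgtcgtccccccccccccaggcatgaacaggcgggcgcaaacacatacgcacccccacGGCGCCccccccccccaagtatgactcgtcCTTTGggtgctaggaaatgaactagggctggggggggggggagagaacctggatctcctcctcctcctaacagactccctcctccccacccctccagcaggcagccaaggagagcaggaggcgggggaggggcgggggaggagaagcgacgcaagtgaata

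The Sp5 window held 4 TCF/LEF cores, of which the one that starts 104 bases before the transcript start was a full motif. Of 32851 windows of the same length, 0.773% held at least 4 cores, 48.6% at least 1 core and 7.48% at least 1 full motif. The Axin2 window held no match to any of these motifs, and bases outside this window were not searched. The Lef1 window held 1 core and 1 GGCGCC, a motif found in 9.59% of all windows. RefSeq windows were matched by symbol for 8 of the 10 genes, with 14 windows in all. Among these 14, 1 held the full TCF/LEF motif, 8 a core and 6 GGCGCC. Windows of a gene can overlap, and the same GGCGCC of Lef1 was counted in each of 2 overlapping windows. The G and C content of the shown windows was 46% for Sp5, 69.2% for Axin2 and 66.4% for Lef1, against a median of 52.4% over all windows. A match describes the letters and is not a measured site.

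The signals are MAS5 intensities on a linear scale, which summarise the perfect-match and mismatch probes of a probe set. Over all probe sets deposited, the median signal was 81.8 and 94.9 on the treated arrays (replicates 1 and 2) and 82.5 and 94.6 on the untreated ones. Log2 signals of the tested probe sets correlated at r = 0.984 to 0.987 between any 2 arrays, across probe sets, which are not independent replicates. All 8 stem cell markers (Pou5f1, Nanog, Sox2, Zfp42, Esrrb, Klf4, Dppa5a and Fgf4) lay above the limit for testing, with a summed signal of 83151 and 79308 on treated arrays and of 83286 and 78082 on untreated arrays. Of 8 feeder fibroblast markers, 6 lay below that limit (Col1a1, Col3a1, Postn, Pdgfra, Lum and Dcn), and the summed signal of the 8 was 555 and 687 on treated and 588 and 609 on untreated arrays. Summed signals were 682 and 819 on treated and 565 and 669 on untreated arrays for 6 primitive endoderm markers (all but Pdgfra above the limit). For 4 primitive streak and mesoderm markers (all but Gsc above) the sums were 507 and 557 on treated and 423 and 440 on untreated arrays. They were 1796 and 1758 on treated and 2166 and 1988 on untreated arrays for 4 neuroectoderm markers (Sox1 and Zic1 below). The sums of the last 3 lists did not overlap between the groups. Among all tested probe sets, 28.4% did not overlap, in either direction. The brightest neuroectoderm marker alone had a mean signal of 1482, so that sum rests mostly on 1 marker. The part of other cell types in the values below was not tested. In bulk RNA, fewer cells of a type and less RNA per cell cannot be told apart. The treated arrays carried a BMP response. Id1, an early BMP target that encodes an inhibitor of basic helix-loop-helix factors, read 9738 and 9495 with BMP-2 and 3129 and 3007 without (limma adjusted p = 2.0e-05).

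No member passed the test. By limma, with Benjamini-Hochberg adjustment over all 27022 tested probe sets, 0 of the 16 tested member probe sets reached an adjusted p of 0.05, and the adjusted p was 1.00 for each. Over all tested probe sets 0.0185% passed, all of them higher with BMP-2. At an unadjusted p under 0.05 there was 1 of 16, a Lef1 probe set, against 3.07% of all tested probe sets. The groups were apart, without overlap, for 3 member probe sets with higher and 3 with lower signals in treated cells, where 15.9% and 12.5% of all tested probe sets did so.

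The members did not lie to one side of 0. Of the 16 tested probe sets, 9 had a log2 difference (treated minus untreated) above 0 and 7 below, or 56.2% above 0, against 52.2% of all tested probe sets. The median log2 difference was 0.02 for the members and 0.01 over all tested probe sets. The median size of the difference, without its sign, was 0.15 log2 for the members and 0.11 over all. The interval of 10 of the 16 lay within a fold of 1.5 in either direction, and the intervals of the other 6, among them those of Sp5, Nkd1 and Axin2, reached further.

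**Figure D1:**
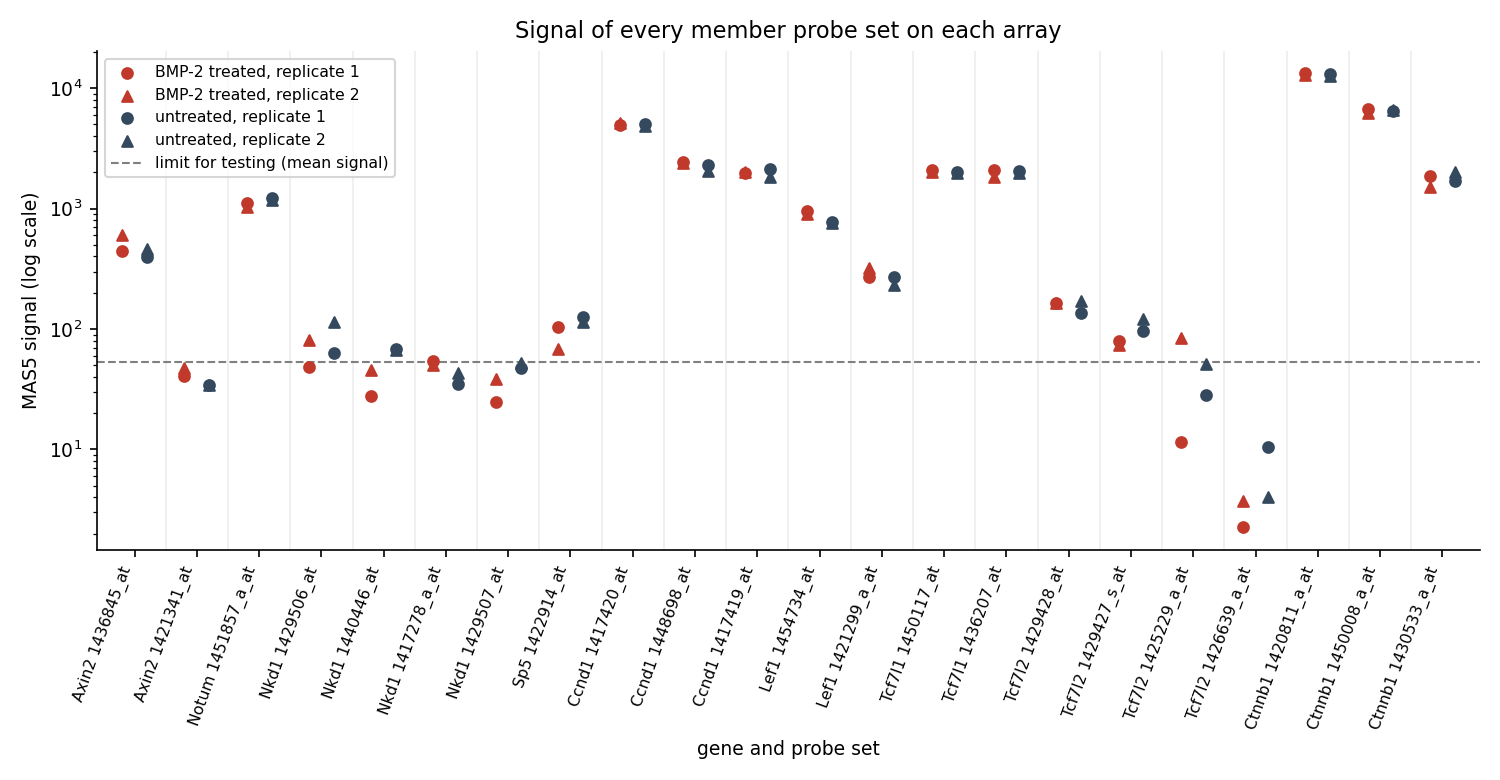
MAS5 signal (log scale) of the 22 member probe sets on the 2 BMP-2 treated arrays (red) and, to their right, the 2 untreated arrays (dark), with circles for replicate 1 and triangles for replicate 2. The dashed line at a signal of 53.0 is the limit that the mean log2 signal had to pass for testing, and 6 probe sets of Axin2, Nkd1 and Tcf7l2 lie below it by that mean.

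The first question put to the members was whether direct targets of beta-catenin lay in one direction after 1 h of BMP-2. They did not: of the 6 direct target genes with a tested probe set, 3 (Axin2, Lef1 and Ccnd1) were on the higher side in treated cells and 3 (Sp5, Nkd1 and Notum) on the lower side, by the brightest tested probe set of each gene, with Ccnd1 turning to the lower side when arrays were centred on the median of the tested probe sets. Their median log2 difference was -0.07, within a range of -0.52 to 0.28, against a median of 0.01 over 12976 tested genes, of which 53% lay above 0. The mean log2 signal of these 6 probe sets was 8.90 and 8.96 on treated arrays and 8.95 and 9.09 on untreated arrays. The median log2 signal of all tested probe sets was 8.13 and 8.20 on treated and 8.08 and 8.18 on untreated arrays. The untreated replicate 2 array stood highest in the target mean, and the groups overlapped in that mean as deposited. Relative to the median of its own array, the target mean stood higher on each untreated array than on either treated array. This separation was not tested.

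Among the feedback inhibitors, Axin2, the scaffold protein that is induced by the pathway and limits it, read 447 and 600 in treated cells and 393 and 465 in untreated cells (probe set 1436845_at). The lower treated array lay below the higher untreated one, so the groups overlapped. The means were 523 ± 108 with BMP-2 and 429 ± 51.2 without (SD, n = 2 each), a log2 difference of 0.28 ± 0.17 (SE; 95% interval -0.11 to 0.66). Between arrays of equal replicate number Axin2 differed by 0.18 log2 for replicate 1 and by 0.37 log2 for replicate 2. The difference ran from 0.06 to 0.49 log2 over the alternative settings. A second Axin2 probe set, too dim to be tested, read 40.9 and 47.2 in treated and 34.5 and 34.2 in untreated cells. These dim signals did not overlap and lay on the same side as those of the brighter probe set. Their log2 difference was 0.36 ± 0.46 (SE; 95% interval -0.72 to 1.43) in the fit without a limit on dim probe sets. Of the 6 member probe sets too dim to be tested, 5 did not overlap, some higher and some lower. The share without overlap among all dim probe sets was not computed, so that count has no background and is not read as a result.

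Notum, a secreted enzyme that removes the lipid from Wnt ligands and so inactivates them, read 1113 and 1026 in treated cells and 1222 and 1168 in untreated cells. Both treated signals lay below both untreated ones. The means were 1069 ± 61.4 with BMP-2 and 1195 ± 38.1 without (SD, n = 2 each), and the log2 difference was -0.16 ± 0.11 (SE; 95% interval -0.40 to 0.08). In fold terms the interval ran from 0.759 to 1.05, and the log2 difference ran from -0.22 to -0.10 over the alternatives.

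Nkd1 encodes a cytoplasmic protein that binds Dishevelled and damps the signal. Its tested probe set read 48.4 and 80.8 in treated cells and 63.1 and 114 in untreated cells, so the groups overlapped. The mean log2 difference was -0.44 ± 0.41 (SE; 95% interval -1.35 to 0.47), the widest error among the tested members, and it ran from -0.86 to -0.01 when single arrays were left out. The 3 other Nkd1 probe sets were too dim to be tested and did not share a direction. Probe set 1440446_at read 27.9 and 45.5 in treated and 67.9 and 67.0 in untreated cells, and probe set 1429507_at read 24.6 and 38.8 in treated and 47.2 and 52.2 in untreated cells. Probe set 1417278_a_at, the other way, read 54.5 and 49.9 in treated and 35.2 and 43.1 in untreated cells. The treated and untreated signals of each of these dim probe sets did not overlap, and none had an unadjusted p under 0.05 in the fit without a limit on dim probe sets.

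Sp5, a zinc finger factor of the Sp1 family that is a direct beta-catenin target and itself acts on Wnt target genes, had the lowest difference among the tested members. It read 103 and 68.0 in treated cells and 126 and 114 in untreated cells. The groups did not overlap, and the 2 treated arrays lay further from each other than the untreated ones. The means were 85.4 ± 24.6 with BMP-2 and 120 ± 8.65 without (SD, n = 2 each). The log2 difference was -0.52 ± 0.30 (SE; 95% interval -1.19 to 0.15, unadjusted p = 0.117 by limma). Leaving out single arrays gave -0.81 to -0.22 log2. The promoter window shown above with 4 TCF/LEF cores thus belongs to a target on the lower side. The Axin2 window, without a match, belongs to a target on the higher side. The Nkd1 window, not shown, held no match either, and Nkd1 lay on the lower side. Whether motifs go with direction was not tested.

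Ccnd1 encodes cyclin D1, which drives the step out of G1 phase, and is a target of many growth signals beside Wnt. The brightest of its 3 probe sets read 4960 and 5126 in treated cells and 5051 and 4858 in untreated cells, with overlapping groups. Its log2 difference was 0.03 ± 0.07 (SE), and the interval of the fold was 0.907 to 1.14. The second, 1448698_at, read 2430 and 2384 in treated and 2322 and 2039 in untreated cells, a log2 difference of 0.15 ± 0.10 (0.05 to 0.24 over the alternatives) without overlap. The third, 1417419_at, read 1976 and 2007 in treated and 2118 and 1827 in untreated cells, a log2 difference of 0.02 ± 0.10 with overlap. After centring each array on the median of the tested probe sets, the brightest and the third turned to -0.0054 and -0.014 log2, so their direction is not settled.

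**Figure D2:**
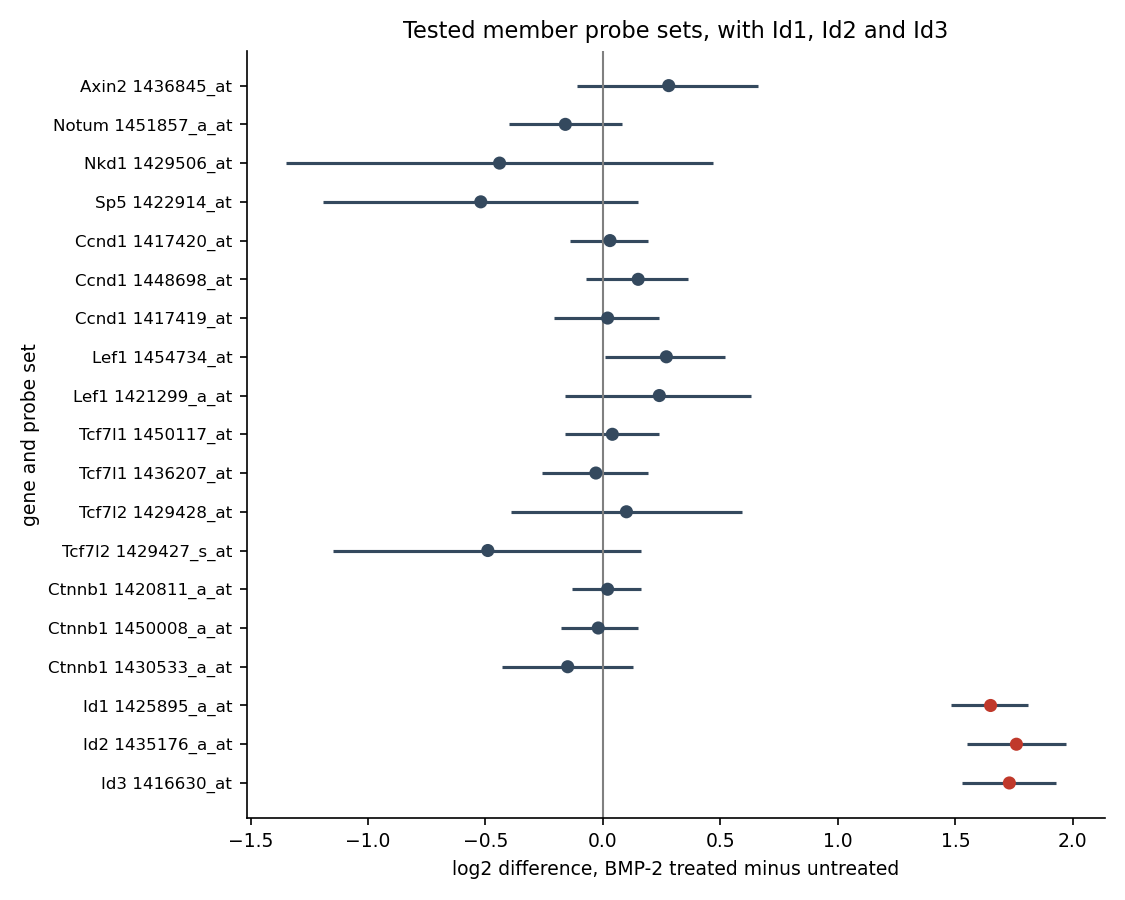
Log2 difference (BMP-2 treated minus untreated; points) with its 95% interval (lines, limma) for the 16 tested member probe sets and, in red, for Id1, Id2 and Id3. The member differences lie between -0.52 and 0.28 and only the interval of Lef1 1454734_at lies wholly on one side of 0. The Id intervals, by the brightest probe set of each gene, lie between 1.48 and 1.97. Other tested Id2 probe sets, not shown, gave 1.15 (95% interval 0.90 to 1.40) and 0.99 (0.27 to 1.71).

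The TCF/LEF factors share an HMG box that binds DNA and a stretch that binds beta-catenin. Lef1 is both such a factor, mostly an activator, and a Wnt target. Its brighter probe set, 1454734_at, read 952 and 894 in treated cells and 772 and 764 in untreated cells. Both treated arrays lay above both untreated arrays, and the gap between the groups exceeded the spread within either. The means were 923 ± 41.4 with BMP-2 and 768 ± 5.47 without (SD, n = 2 each), a fold of 1.2 (95% interval 1.01 to 1.43). The log2 difference was 0.27 ± 0.11 (SE), with an unadjusted p of 0.040 and an adjusted p of 1.00 by limma. It ran from 0.22 to 0.31 log2 over the alternatives and passed an adjusted p of 0.05 in none of them (lowest adjusted p = 0.860). The second Lef1 probe set, 1421299_a_at, read 271 and 318 in treated cells and 268 and 232 in untreated cells. Here too the groups did not overlap, though treated replicate 1 and untreated replicate 1 were nearly equal, and the log2 difference was 0.24 ± 0.18 (SE; 95% interval -0.16 to 0.63, and 0.12 to 0.35 over the alternatives).

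Tcf7l1, formerly called Tcf3, is the main TCF repressor of pluripotency genes in mouse embryonic stem cells. Probe set 1450117_at read 2109 and 1994 in treated cells and 2012 and 1987 in untreated cells. Probe set 1436207_at read 2103 and 1819 in treated and 2039 and 1960 in untreated cells. The groups overlapped on both probe sets. The log2 differences were 0.04 ± 0.09 and -0.03 ± 0.10 (SE), and the fold intervals of 0.892 to 1.18 and 0.837 to 1.14 lay on both sides of 1.

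Tcf7l2, formerly called Tcf4, acts as activator or repressor depending on its isoform and partners. Its 4 probe sets did not give 1 answer. Probe set 1429428_at read 164 and 163 in treated and 136 and 171 in untreated cells, overlapping, with a log2 difference of 0.10 ± 0.22 (SE). Probe set 1429427_s_at read 79.5 and 73.5 in treated and 96.0 and 121 in untreated cells, without overlap, with a log2 difference of -0.49 ± 0.29 (SE; 95% interval -1.15 to 0.16). The ending "_s_at" marks a probe set whose probes can match transcripts of more than a single gene. The other 2 were too dim to be tested: 1425229_a_at read 11.5 and 83.4 in treated and 28.4 and 51.3 in untreated cells, and 1426639_a_at read 2.27 and 3.71 in treated and 10.4 and 3.99 in untreated cells. The first of these dim probe sets overlapped and spread widely between the treated arrays, and the second did not overlap.

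Ctnnb1 transcript, the source of beta-catenin, was measured by 3 probe sets. The brightest read 13250 and 12847 in treated cells and 13222 and 12554 in untreated cells. Its log2 difference of 0.02 ± 0.07 (SE) had a fold interval of 0.916 to 1.12, the narrowest among the members. The other 2 differed by -0.02 ± 0.08 and -0.15 ± 0.13 log2 (SE), and all 3 overlapped between the groups. The -0.15 of the third became -0.31 without treated replicate 1, -0.28 without untreated replicate 1, -0.033 without untreated replicate 2 and -0.0012 without treated replicate 2. The transcript level says nothing of the amount of beta-catenin protein, which the pathway sets through degradation and which was not measured here.

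**Figure D3:**
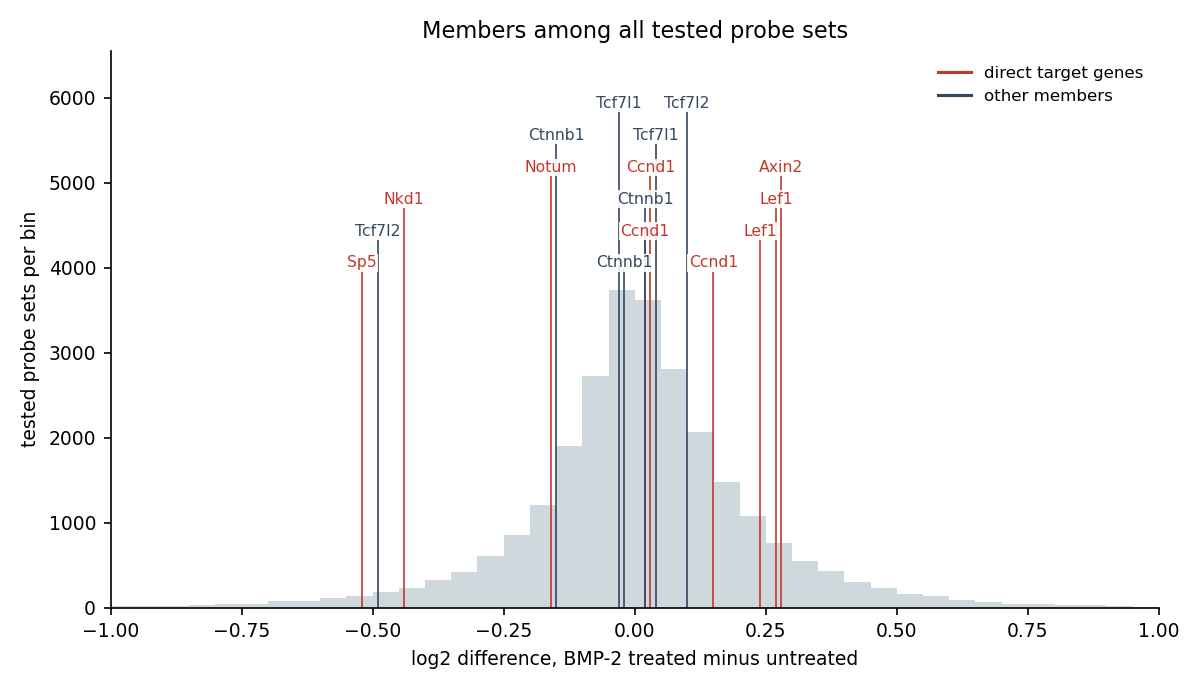
Number of tested probe sets (bars) by log2 difference, BMP-2 treated minus untreated, in bins of 0.05 log2, with the 16 tested member probe sets as lines (red for direct target genes, dark for the others). Members stand on both sides of 0, from Sp5 at -0.52 to Axin2 at 0.28.

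Other genes of the Wnt pathway were described from lists by role that hold 99 genes beside the members, of which 68 had a tested probe set. By limma, 0 of the 68 passed an adjusted p of 0.05 (0.0308% of all 12976 tested genes did, each taken by its brightest probe set), and 2 had an unadjusted p under 0.05, a value that 3.21% of all tested genes reached. Of the 68, 37 lay on the higher side in treated cells and 31 on the lower side, with a median log2 difference of 0.02, and 32 lay higher and 36 lower when arrays were centred on the median of the tested probe sets. The groups did not overlap for 12 higher and 11 lower genes of the 68, where 28.8% of all tested genes did so in either direction.

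By role, 5 of 11 tested ligands and secretion genes lay higher and 6 lower, with a median of -0.09 log2. Wnt7a read 182 and 234 in treated and 136 and 162 in untreated cells (0.47 ± 0.22 log2, SE), while its 2 dimmer probe sets, not tested, gave -0.49 and -0.64. Wnt7b differed by 0.29 ± 0.17 log2 on its brightest probe set and by -0.20 on another. The 0.29 became 0.088 without untreated replicate 1, 0.17 without treated replicate 2 and 0.48 without untreated replicate 2. Wnt3a, the ligand commonly used to switch the pathway on in culture, was too dim to be tested. Of 17 receptors, co-receptors and R-spondins 12 lay higher (median 0.05), with 0.37 ± 0.23 log2 for Fzd9 and 0.28 ± 0.20 log2 for Fzd10, both Frizzled receptors. Over the alternatives Fzd9 ran from 0.26 to 0.47 and Fzd10 from 0.15 to 0.42 log2. A dimmer Fzd10 probe set, not tested, gave -0.25.

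Of 8 secreted and membrane inhibitors 6 lay higher, with a median of 0.13 log2. Sfrp2, which binds Wnt ligands outside the cell, differed by 0.14 ± 0.12 log2, and Kremen1, a receptor for Dickkopf inhibitors, by -0.25 ± 0.17. Other tested Kremen1 probe sets gave 0.02 and -0.06, and the -0.25 became -0.058 without untreated replicate 2 and -0.45 without untreated replicate 1. The Sfrp2 difference ran from 0.07 to 0.21 log2 over the alternatives. The cytoplasmic genes were split at 8 higher and 7 lower of 15, with a median of 0.02. Gsk3b, the kinase that marks beta-catenin for degradation, and Csnk1d, a casein kinase of the pathway, differed by 0.19 ± 0.11 and 0.19 ± 0.10 log2, while other tested probe sets of these 2 genes gave -0.20 to 0.05 and -0.26 to 0.07. The Csnk1d difference ran from 0.06 to 0.32 log2 over the alternatives. Of 10 nuclear partners 6 lay higher (median 0.02). Pygo2, a co-activator that joins beta-catenin to chromatin, read 972 and 998 in treated and 1124 and 1242 in untreated cells (-0.26 ± 0.11 log2, unadjusted p = 0.036, adjusted p = 1.00 by limma). Both treated signals of Pygo2 lay below both untreated ones. Tle3, a Groucho co-repressor, differed by 0.18 ± 0.10 log2, with 0.07 and -0.07 on its other tested probe sets and 0.10 to 0.27 over the alternatives.

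The other known beta-catenin targets lay mostly lower. Of 10 with a tested probe set 9 were lower in treated cells and 1 (Znrf3) higher, with a median of -0.20 log2, against 0.01 over all tested genes. With no limit on dim probe sets, 11 of 17 lay lower, with a median of -0.09 log2. With the filter at the 60th percentile, 6 of 7 lay lower, also with a median of -0.09 log2. Leaving out single arrays gave medians from -0.20 to -0.10 log2, with at least 8 of 10 lower. None of the 10 passed the test. The groups did not overlap for 4 of the 10 (Apcdd1, Nkd2, Tnfrsf19 and Ascl2), all lower. Among all 12976 tested genes, 1613 were lower without overlap, and 28.8% did not overlap in either direction. The Ascl2 probe set ends in "_s_at" and that of Apcdd1 in "_x_at", so their probes can match transcripts of more than a single gene. Any other probe sets of Apcdd1, Nkd2 and Ascl2 are not given here. Tnfrsf19, a receptor of the TNF receptor family, read 199 and 207 in treated and 294 and 248 in untreated cells (-0.41 ± 0.18 log2, unadjusted p = 0.047, adjusted p = 1.00 by limma). Its other tested probe sets gave 1.03 and -0.54 log2, so they disagree. Nr5a2, a nuclear receptor that supports Pou5f1 expression, read 1956 and 1772 in treated and 2512 and 1904 in untreated cells (-0.23 ± 0.13 log2), and its other tested probe sets gave -0.16, 0.22 and -0.16. Without untreated replicate 1, the highest of its 4 signals, the Nr5a2 difference was -0.033 log2, and without untreated replicate 2 it was -0.43. Nkd2, a paralog of Nkd1, had the lowest difference of the 10, at -0.57 ± 0.39 log2. Its signals of 52.3 and 41.5 in treated and 79.1 and 60.4 in untreated cells lay near the limit for testing, a signal of 53.0. Nkd2, Apcdd1, Ascl2 and Znrf3 were named after their values were seen. Whether these targets and the 6 direct targets above, split 3 to 3, differ from each other was not tested.

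**Figure D4:**
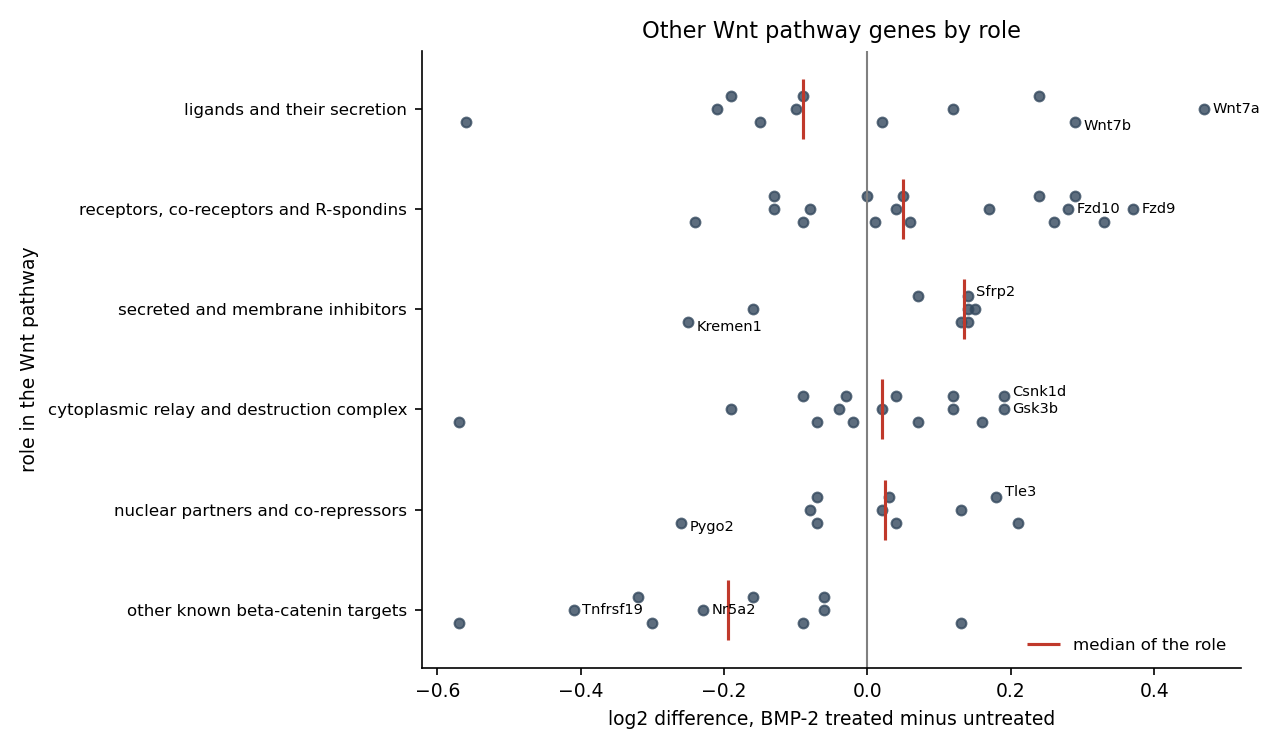
Log2 difference (BMP-2 treated minus untreated) of the 68 tested Wnt pathway genes beside the members, each a point at its brightest tested probe set, in rows by role, with the median of a role in red. Genes held by more than 1 role appear in each. The medians lie between -0.20 for the other known targets and 0.13 for the secreted and membrane inhibitors.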

How the data were processed

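Each deposited value is the linear intensity of a probe set, from MAS5 according to the submitters' processing notes (version and genome build not given in the sources used here), measured on biotin-labelled cRNA per the labels' protocols. The 2%-trimmed mean was 500 on each array, read as a scaling within each array. In place of detection calls, which were not used here, probe sets were chosen by brightness. All tests used log2 of the signal, without a pseudocount. Array medians lay within 0.21 log2, under the limit of 0.3, so the scaling was kept as deposited. Without 64 control probe sets, those with a mean log2 signal over the 4 arrays above its 40th percentile (5.73 log2, a signal of 53.0) were tested: 27022 of 45037. Of the 45037, 34945 have 1 gene symbol in the platform annotation, 932 several and 9160 none. For lists, a gene was represented by its brightest tested probe set that names it alone.

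Groups came from the sample titles. The comparison of treated with untreated arrays used limma 3.58.1 under R 4.3.3 (lmFit, eBayes with a trend on signal, 2 residual and 7.98 prior degrees of freedom), two-sided. Intervals are at 95% and SE is that of the fit. The fit was tested on simulated data with normal noise whose spread was smoothed over signal. There 49.6% of changes of 0.5 log2 and 81.2% of changes of 1 log2 passed the threshold. In that noise, probe sets of like signal had the same spread, which on the arrays differs from probe set to probe set. The simulated shares may thus be too high for these arrays. Among the measured values, the Id2 probe set 1453596_at, at 0.99 ± 0.32 log2 (SE), did not pass. Changes of the size seen in the members could thus be missed. The number of arrays limits the precision. The named genes were all members, the 2 genes of each role with the smallest p, and Id1, Id2 and Id3. Members and lists were chosen with earlier results of these data known. Promoter windows are RefSeq's, build GRCm38.p6. The alternatives changed the normalization (median centring or quantiles), added a pseudocount of 25.4 (the 25th percentile of signals), dropped the filter or set it at the 60th percentile, dropped the trend, took the replicate number as a block, left out each array in turn, set the threshold at an adjusted p of 0.1 or averaged a gene's probe sets.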

Additional observations from a re-analysis of the deposited data

How the results depend on the processing

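Under every alternative run, 0 member probe sets and 0 other Wnt pathway genes passed. Over all probe sets, 5 passed in the setting reported. The count was 17 (12 higher, 5 lower) with each array centred on the median of the tested probe sets, and 116 (72 higher, 44 lower) when centred on all probe sets, a choice made after seeing the data. It was 8 with the filter at the 60th percentile, 11 at an adjusted p under 0.1, and 0 without the intensity trend (1023 at an unadjusted p under 0.05), where Id1, Id2 and Id3 had an adjusted p of 0.859. Leaving out single arrays gave 16 to 141, with 1 array left in a group whose spread is taken from the other group. With the replicate block 11 passed. Arrays of equal replicate number deviated together at r = 0.15, but 2 pairs do not show that the numbers pair the samples.

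Of the 6 direct target genes, 2 rather than 3 lay higher after centring on the tested probe sets and without untreated replicate 2. With the filter at the 60th percentile 3 of the 4 genes still tested lay higher, since Sp5 and Nkd1 were too dim, and in the other settings 3 of 6 did. Differences near 0 took the opposite sign in some settings. After centring on the tested probe sets, Ccnd1 gave -0.0054 (1417420_at) and -0.014 (1417419_at) and Ctnnb1 1420811_a_at gave -0.013 log2, while quantile normalization gave 0.0059 for Ctnnb1 1450008_a_at. Leaving out single arrays gave -0.0023 to 0.054 and -0.089 to 0.12 for these Ccnd1 probe sets, and -0.019 to 0.056 and -0.072 to 0.04 for those of Ctnnb1. It gave -0.0042 to 0.077 (1450117_at) and -0.14 to 0.073 (1436207_at) for Tcf7l1, and -0.064 to 0.26 for Tcf7l2 1429428_at. The cause was not tested.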
